A study of Homo sapiens with 6 samples.

Results

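The 31 genes described here were all rows of the deposited count table whose symbol began with AKR or ALDH followed by a digit, out of 16720 named rows. They comprised 13 aldo-keto reductase (AKR) genes and 18 aldehyde dehydrogenase (ALDH) genes, and the choice used the symbols alone. RNA was sequenced from Hep3B, a line derived from a human hepatocellular carcinoma (HCC), a cancer of hepatocytes. The sgControl group held 3 libraries labelled wild type and carrying a control guide. The sgRFX6 group held 3 libraries labelled RFX6 knockout, in which the gene of the transcription factor RFX6 had been targeted with Cas9, and both groups came from the same cell line. The study selected infected Hep3B cells with puromycin and expanded clones that each grew from a single cell. The column names tie the knockout libraries to the guide named sg3, and the labels do not say whether replicates were separate cultures or clones. A difference between the groups therefore cannot be told apart from a difference between clones or guides.

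Cells remove reactive aldehydes and ketones by reduction or by oxidation. Aldo-keto reductases use NADPH to reduce carbonyl groups to alcohols, and the AKR1C enzymes do so on steroids, prostaglandins and bile acid precursors. Aldehyde dehydrogenases oxidise aldehydes to carboxylic acids, among them acetaldehyde from ethanol, retinal on its way to retinoic acid and the semialdehydes of amino acid breakdown. Several of these genes, including AKR1B10 and AKR1C3, are known for high expression in liver cancers.

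The AKR1C genes lie side by side on the short arm of chromosome 10 and are very alike, which bears on how reads can be assigned to them. On the GRCh38 build, GENCODE places AKR1C1 at chr10:4963253-4983283 and AKR1C3 at chr10:5035354-5107686, both on the plus strand. AKR1C2 lies between them at chr10:4987400-5018031 on the minus strand, and AKR1C4 follows at chr10:5195462-5218949 on the plus strand. Over the whole coding sequence, AKR1C1 shared 98.0% of aligned bases with AKR1C2, 91.5% with AKR1C3 and 88.9% with AKR1C4. Of the 50-base stretches of the AKR1C1 coding sequence, 51.8% also occurred in AKR1C2, 14.6% in AKR1C3 and 6.07% in AKR1C4. The first 120 coding bases of the principal GENCODE transcripts are printed because they show where the 4 genes part, with capitals at the 27 positions where at least 1 gene differs.
AKR1C1: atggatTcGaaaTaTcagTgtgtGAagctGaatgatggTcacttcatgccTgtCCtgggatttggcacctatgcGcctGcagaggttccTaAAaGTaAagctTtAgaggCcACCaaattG
AKR1C2: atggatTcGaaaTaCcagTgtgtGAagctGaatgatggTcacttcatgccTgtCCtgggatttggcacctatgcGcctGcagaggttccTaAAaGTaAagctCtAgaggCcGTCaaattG
AKR1C3: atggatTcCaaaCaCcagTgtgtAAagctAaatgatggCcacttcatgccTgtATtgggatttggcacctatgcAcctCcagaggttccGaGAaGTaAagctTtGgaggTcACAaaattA
AKR1C4: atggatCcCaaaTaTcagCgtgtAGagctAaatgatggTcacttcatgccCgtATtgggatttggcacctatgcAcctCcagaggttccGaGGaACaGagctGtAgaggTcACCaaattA
Against AKR1C1, this stretch differed at 4 positions in AKR1C2, 16 in AKR1C3 and 20 in AKR1C4. Reads that fall in shared stretches could have been split between neighbours, so the separate AKR1C values are uncertain, most of all for AKR1C1 against AKR1C2. How multi-mapping reads were counted is not given in the sources used here.

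RFX factors are known to bind X-box elements, so the 250 bases upstream of each RefSeq start (GRCh38.p14) were searched on both strands for the half-site GTTGCC. The half-site overlaps the full palindromic X-box, which was searched as well. Among 35116 such windows of all genes, 10.2% held the half-site and 0.441% the full element. The windows of AKR1C1 and AKR1C2, 99.6% identical over their aligned bases, each held 1 half-site, 44 and 48 bases upstream of the start. The windows are printed for AKR1C2 (chr10:5003858-5004107, minus strand), for the downstream start of AKR1C3 (chr10:5094164-5094413, plus strand) and for AKR1C4 (chr10:5196587-5196836, plus strand), because AKR1C2 and AKR1C3 were called lower and AKR1C4, which was not called, had groups that did not overlap in the other direction. Capitals mark the half-site.
AKR1C2: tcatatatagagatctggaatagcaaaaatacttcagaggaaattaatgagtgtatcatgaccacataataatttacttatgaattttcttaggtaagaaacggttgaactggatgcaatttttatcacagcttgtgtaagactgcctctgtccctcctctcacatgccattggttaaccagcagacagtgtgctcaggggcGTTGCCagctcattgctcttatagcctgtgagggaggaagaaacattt
AKR1C3: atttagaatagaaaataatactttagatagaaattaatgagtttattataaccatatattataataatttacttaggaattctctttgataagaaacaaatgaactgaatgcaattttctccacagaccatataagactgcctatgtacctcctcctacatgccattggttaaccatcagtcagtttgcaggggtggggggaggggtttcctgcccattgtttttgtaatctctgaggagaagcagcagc
AKR1C4: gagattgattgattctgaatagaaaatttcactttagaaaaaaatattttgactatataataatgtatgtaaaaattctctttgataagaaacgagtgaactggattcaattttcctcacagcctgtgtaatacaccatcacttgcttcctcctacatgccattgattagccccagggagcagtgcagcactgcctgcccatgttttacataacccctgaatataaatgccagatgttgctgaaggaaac
The letters of the half-site were in neither window of AKR1C3 nor in that of AKR1C4. Of the 31 windows available for 23 member genes, 3 held it, in AKR1C1, AKR1C2 and ALDH3B1, and none held the full element. TGACNNNGC, the core of the antioxidant response element that NRF2 uses, where N is any base, overlaps neither motif by its letters. It was in 10.9% of all windows and, among the members, in those of AKR7A2.

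The count table held 16730386 to 25070793 counts per library, and levels are given as CPM, counts scaled to a common library size after TMM correction for composition. RFX6, the targeted gene, was counted at 5.64, 5.83 and 7.34 CPM in sgControl replicates 1, 2 and 3 and at 3.43, 3.71 and 3.50 CPM in the sgRFX6 replicates. Its groups did not overlap, and edgeR's quasi-likelihood test gave a log2 fold change of -0.82 (SE 0.26, adjusted p = 0.142), which missed the threshold of 0.05 on p adjusted over all tested genes. Of the hepatocyte markers, ALB was at 12.9 to 32.1 CPM, SERPINA1 at 8.19 to 12.3 CPM and TTR at 0.259 to 0.880 CPM over all libraries, levels low for secreted proteins that define hepatocytes. APOB was higher, at 76.4, 60.6 and 62.8 CPM in sgControl and 19.3, 15.9 and 46.1 CPM in sgRFX6. Of the 9 hepatocyte genes AFP and AHSG were called higher and FGB lower. The log2 fold change was positive for 7 and negative for 2, APOB and FGB, with a median of 0.45. AFP was at 1.58 to 2.31 CPM in sgControl and 9.98 to 17.2 CPM in sgRFX6. FGB was at 22.4 to 34.4 CPM in sgControl and 3.39 to 6.45 CPM in sgRFX6. The 9 genes summed to 114 to 147 CPM in sgControl and 74.6 to 116 CPM in sgRFX6. The identity of the line was not tested, and what follows describes the libraries by their labels. Among the other marker lists, 3 of 5 tested fibroblast genes were called lower in sgRFX6, all of them collagens. DCN was lower without being called (log2 fold change -0.44), and LUM had a positive log2 fold change. No leukocyte, endothelial or cholangiocyte gene was called. The 5 leukocyte genes summed to 73.9 to 160 CPM in sgControl and 64.5 to 102 CPM in sgRFX6, most of it CD68. LYZ, also of that list, was at 0.241 to 0.729 CPM in sgControl and 1.44 to 2.26 CPM in sgRFX6 (adjusted p = 0.0526, edgeR). Of the endothelial genes, PECAM1 was at 11.4 to 19.3 CPM over all libraries. The 5 cholangiocyte genes summed to 606 to 976 CPM in sgControl and 416 to 758 CPM in sgRFX6, most of it KRT19 at 407 to 956 CPM over all libraries. The summed level of the 6 fibroblast genes was 51.0 to 60.6 CPM in sgControl and 21.4 to 56.2 CPM in sgRFX6. COL3A1 had 23.0 to 27.5 CPM in sgControl and 2, 0 and 0 counts in the sgRFX6 replicates, while LUM made up 54.7 CPM of the sum in sgRFX6 replicate 3. The part of these cell type markers in the results was not tested.

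Of the 31 genes, 26 had enough counts to be tested, 12 AKR and 14 ALDH. AKR1C3 and AKR1C2 were called lower in the sgRFX6 libraries than in sgControl, by 2.70-fold and 1.83-fold, and no member was called higher. These 2 called members compare with 480 of 12839 tested genes, 3.74%, called in either direction, 1.81% called lower and 1.92% called higher. The log2 fold change was positive for 15 members and negative for 11, with a median of 0.06 against 0.02 over all tested genes. It was smaller than 0.5 in size for 20 of the 26. The CPM of the groups did not overlap for 6 members, 3 higher and 3 lower in sgRFX6, beside 23.1% of all tested genes, so the number of such members was near the background. In whole-culture RNA, fewer cells of a kind and less RNA per cell cannot be told apart.

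AKR1C3 converts androstenedione to testosterone and makes prostaglandin F from other prostaglandins. It was counted at 605, 932 and 640 CPM in sgControl replicates 1, 2 and 3 and at 291, 263 and 251 CPM in sgRFX6 replicates 1, 2 and 3. Every knockout library lay below every control library, and sgControl replicate 2 was the highest of all. The mean fell from 725 ± 180 to 268 ± 20.5 CPM (SD, n = 3 each), a log2 fold change of -1.44 (SE 0.21, adjusted p = 0.00784, edgeR's quasi-likelihood test). AKR1C3 was called in all 17 alternative analyses, with adjusted p between 3.62e-07 and 0.0361, and in all 6 that left out 1 library.

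AKR1C2 inactivates dihydrotestosterone by reducing its ketone. Its CPM were 1322, 1494 and 1311 in the sgControl replicates and 791, 744 and 724 in the sgRFX6 replicates. The groups were apart by far more than the range within either of them. The log2 fold change was -0.87 (SE 0.17, adjusted p = 0.0239, edgeR's quasi-likelihood test). The call was less firm than the gap, since it was made in 9 of 17 alternatives, with adjusted p between 9.38e-05 and 0.108. It was lost in edgeR's test without sgControl replicate 1, 2 or 3 (adjusted p = 0.0870, 0.0559 and 0.0962) and without sgRFX6 replicate 1 or 2 (adjusted p = 0.108 and 0.0950).

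AKR1C1, which inactivates progesterone, was counted at 2719, 3558 and 2771 CPM in the sgControl replicates and at 2213, 2005 and 1891 CPM in the sgRFX6 replicates. Its groups did not overlap either, but the log2 fold change of -0.57 (SE 0.20, 95% interval -1.01 to -0.12) did not pass (adjusted p = 0.184, edgeR's quasi-likelihood test). AKR1C1 was called lower in 1 of 17 alternatives, limma-voom (log2 fold change -0.38, adjusted p = 0.0132), which called 31.1% of all tested genes. The separate values of AKR1C1, AKR1C2 and AKR1C3 thus stood at log2 fold changes of -0.57, -0.87 and -1.44.

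AKR1C4, an enzyme of bile acid and steroid reduction known chiefly from liver, stood on the other side. It was counted at 2.89, 2.31 and 2.33 CPM in the sgControl replicates and at 6.01, 4.84 and 5.50 CPM in the sgRFX6 replicates, well below its neighbours. Every sgRFX6 library was above every sgControl library, and the log2 fold change was 1.12 (SE 0.27, 95% interval 0.50 to 1.73, adjusted p = 0.0622, edgeR's quasi-likelihood test). AKR1C4 was called higher in 4 of 17 alternatives, DESeq2, limma-voom and the corrections for GC content and for neighbouring genes. Of its 50-base coding stretches, 11.8% also occurred in AKR1C3, 8.23% in AKR1C2 and 6.07% in AKR1C1. AKR1C3 stood at 746 CPM per coding kilobase against 2.58 for AKR1C4 in sgControl and at 276 against 5.61 in sgRFX6. Its counts are therefore uncertain, and how many of them were reads of its neighbours was not tested.

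**Figure D1:**
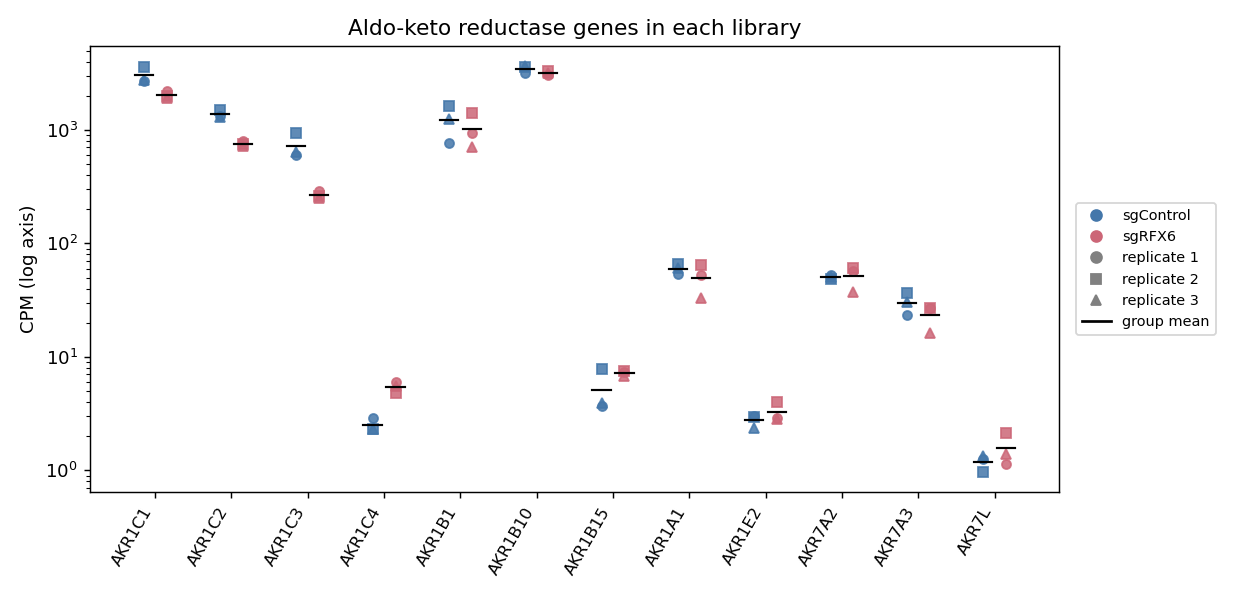
CPM (log axis) of the 12 tested aldo-keto reductase genes in each sgControl (blue) and sgRFX6 (red) library, with symbols for replicates and black bars for group means. The groups stand apart for AKR1C1, AKR1C2, AKR1C3 and AKR1C4, and overlap for the other 8 genes.

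Adding the counts of AKR1C1 to AKR1C4 sets aside how reads were split among these rows. It does not correct for shared reads that the counting may have dropped or counted more than once. The sum was 4647, 5982 and 4722 CPM in the sgControl replicates and 3299, 3015 and 2870.2 CPM in the sgRFX6 replicates. The groups again did not overlap, and with the sum entered as 1 row the log2 fold change was -0.74 (SE 0.20, adjusted p = 0.0919, edgeR's quasi-likelihood test). The summed level therefore did not pass the threshold. This sum was chosen after the data were seen.

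The make-up of the AKR1C counts differed between the groups, and it does not depend on how libraries were scaled. AKR1C3 made up 13.0, 15.6 and 13.5% of AKR1C1 to AKR1C4 counts in the sgControl replicates and 8.82, 8.71 and 8.74% in the sgRFX6 replicates. Per 100 AKR1C1 counts there were 22.2, 26.2 and 23.1 AKR1C3 counts in sgControl and 13.2, 13.1 and 13.3 in sgRFX6. The knockout libraries lay close together, and the control libraries spread more widely above them. A two-sided exact permutation test of this ratio gave p = 0.1, the smallest p that 3 against 3 libraries allow. Groups that do not overlap always give this p, so the test adds nothing to the lack of overlap. AKR1C2 per 100 AKR1C1 counts was 42.0 to 48.6 in sgControl and 35.7 to 38.3 in sgRFX6. AKR1C4 per 1000 AKR1C3 counts was 2.48 to 4.78 in sgControl and 18.4 to 21.9 in sgRFX6. These ratios were chosen after the values were seen.

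**Figure D2:**
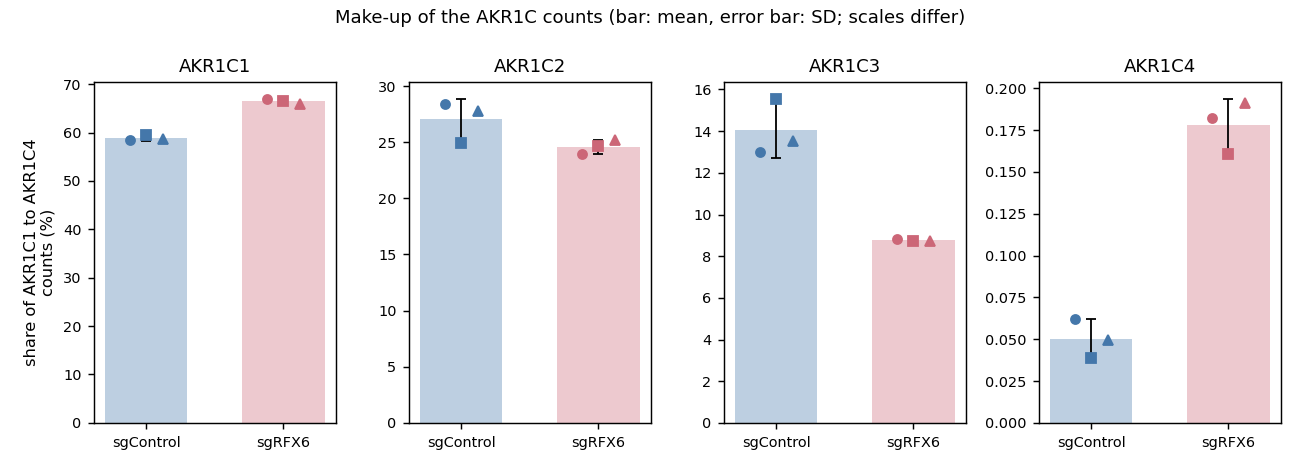
Share of the summed AKR1C1 to AKR1C4 counts (%) that each gene took in the sgControl and sgRFX6 libraries, with bars for means, error bars for the SD (n = 3) and symbols for replicates; vertical scales differ. The AKR1C3 share is 13.0 to 15.6% in sgControl and 8.71 to 8.82% in sgRFX6, and the AKR1C2 shares overlap.

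At the locus, the called genes were AKR1C2 and AKR1C3. Of 14 tested genes within 1 Mb of the AKR1C cluster, 5 were members and 9 were not. Of these 9, 0 were called, beside 3.74% of all tested genes, with log2 fold changes of -0.32 to 0.54. At that share few or none of 9 genes would be called, so this count does not set the cluster apart. AKR1E2, the member next to AKR1C1 on the other side, reduces anhydrofructose and was counted at 2.37 to 4.02 CPM with overlapping groups (log2 fold change 0.23, SE 0.30). Over the 50 tested genes closest on the chromosome, the log2 fold changes had a median of -0.16 around AKR1C1, AKR1C2 and AKR1C3 and of -0.20 around AKR1C4. When each gene was set against its neighbours, AKR1C3 was still called, and AKR1C2 missed the threshold at a log2 fold change of -0.71 (adjusted p = 0.0631, edgeR).

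**Figure D3:**
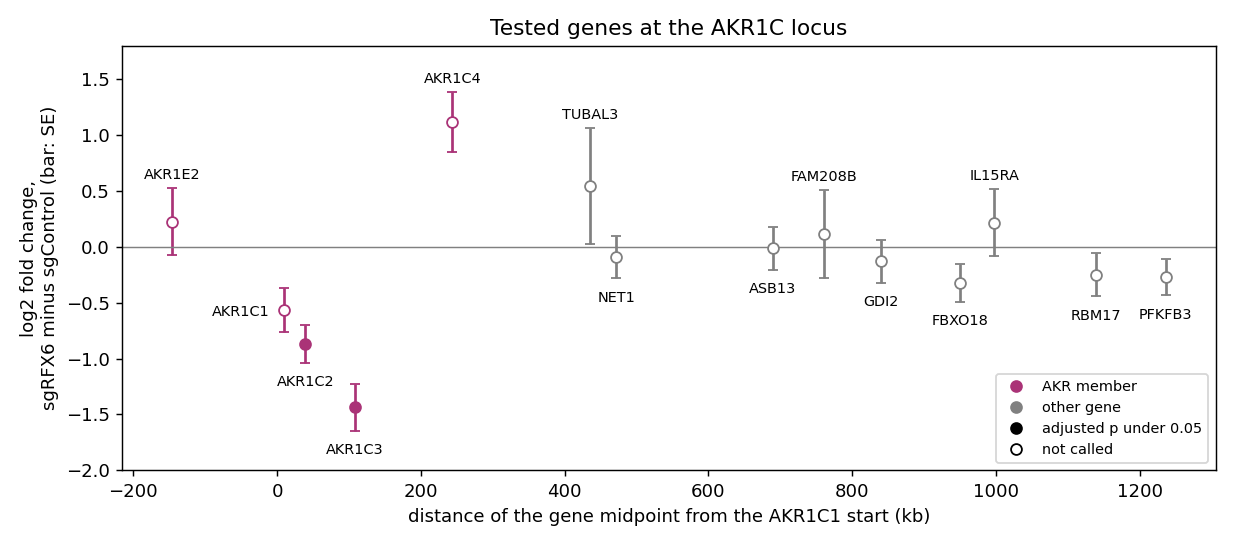
Log2 fold change (sgRFX6 minus sgControl, bars are the SE) of the 14 tested genes within 1 Mb of the AKR1C cluster, against the distance of the gene midpoint from the AKR1C1 start in kb. AKR1C1, AKR1C2 and AKR1C3 lie at -0.57, -0.87 and -1.44, AKR1C4 at 1.12, and the 9 other genes between -0.32 and 0.54.

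Of the remaining aldo-keto reductases, AKR1B10 and AKR1B1 were the most abundant. AKR1B10, which reduces retinal and lipid aldehydes, had the highest level of all members per kilobase of coding sequence in both groups. It was counted at 3155, 3551 and 3637 CPM in sgControl and at 3037, 3298 and 3199.9 CPM in sgRFX6. These libraries overlapped, with a log2 fold change of -0.12 and a 95% interval of -0.53 to 0.29. AKR1B1, the aldose reductase that turns glucose into sorbitol, spread within each group, at 770.1, 1607 and 1253 CPM in sgControl and 942, 1409.7 and 702 CPM in sgRFX6. Its log2 fold change was -0.25 with a 95% interval of -0.99 to 0.49, too wide to tell a fall from a rise. AKR1B15, 93.5% identical to AKR1B10 in its coding sequence, was counted at 3.66 to 7.86 CPM over all libraries, and its values may hold reads of AKR1B10.

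AKR1A1, the aldehyde reductase, and the AKR7 genes were at middling levels and did not pass. AKR1A1 ranged from 33.1 to 65.9 CPM (log2 fold change -0.26). AKR7A2, which reduces succinic semialdehyde, ranged from 37.6 to 60.8 CPM (0.03), and AKR7A3, which reduces aflatoxin dialdehyde, from 16.2 to 36.5 CPM (-0.36). AKR7L was at 0.972 to 2.14 CPM (log2 fold change 0.39), and since it shares 95.7% of its coding bases with AKR7A3 its counts are uncertain. For AKR1A1, AKR7A2 and AKR7A3 the lowest value was that of sgRFX6 replicate 3. Over all tested genes of known GC content, this library's difference from sgRFX6 replicates 1 and 2 went with GC (Spearman correlations -0.83 and -0.83). Between sgControl libraries these correlations were 0.50 for replicate 2 minus 1, 0.54 for 3 minus 1 and -0.27 for 3 minus 2. All 13 tested members above the median GC of 47.9% were lower in sgRFX6 replicate 3 than in the mean of replicates 1 and 2. The median difference was 0.65 on the log2 scale. Of the other 13 members 5 were lower in it, with a median difference of 0.03.

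Counts of AKR genes together made up 0.889, 1.11 and 0.979% of the sgControl libraries and 0.718, 0.750 and 0.739% of the sgRFX6 libraries. The AKR shares of the groups did not overlap. They include AKR1C1 to AKR1C4, whose summed mean was 5117 CPM in sgControl and 3061 CPM in sgRFX6. Of the tested AKR genes, only AKR1C1, AKR1C2, AKR1C3 and, in the other direction, AKR1C4 had groups that did not overlap. Over all tested genes the share of such genes was 23.1%. ALDH genes together made up 0.577, 0.757 and 0.543% in sgControl and 0.654, 0.631 and 0.743% in sgRFX6, which overlapped.

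**Figure D4:**
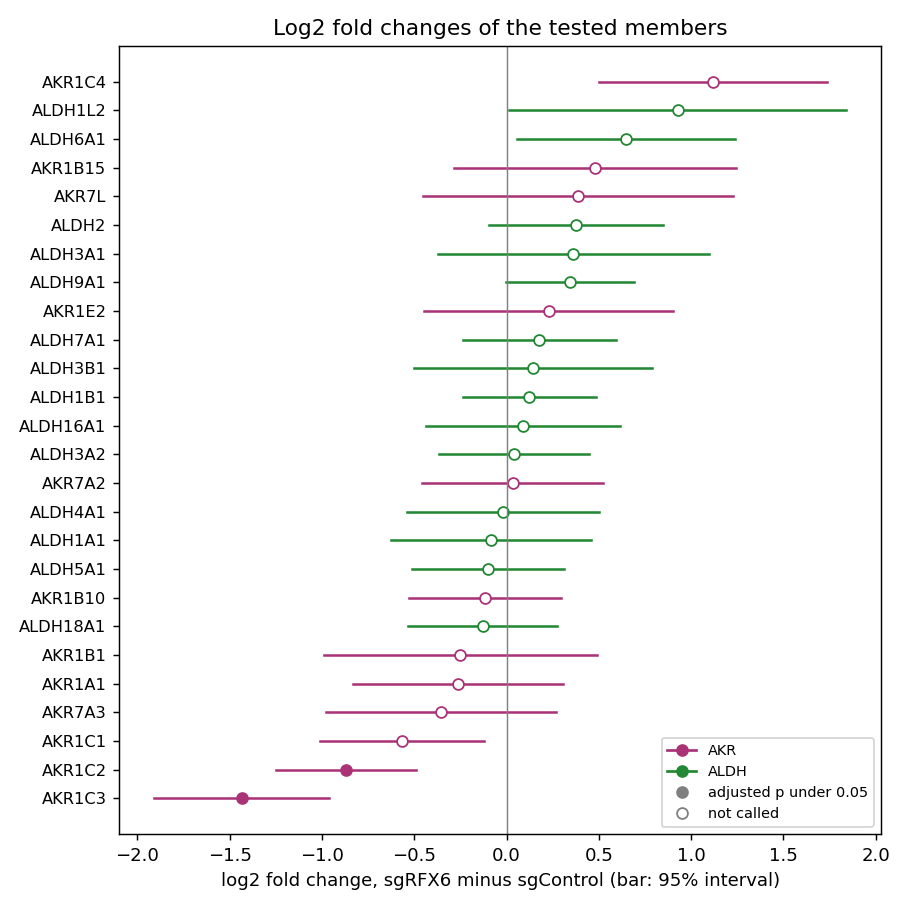
Log2 fold change (sgRFX6 minus sgControl) with its 95% interval for the 26 tested members, AKR in purple and ALDH in green, filled where adjusted p passed the threshold. Filled points are AKR1C3 (-1.44) and AKR1C2 (-0.87), and the ALDH points lie between -0.13 and 0.93.

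No aldehyde dehydrogenase passed the threshold, beside 3.74% of all tested genes. Over the 14 tested ALDH genes the log2 fold changes ran from -0.13 to 0.93 with a median of 0.13, 10 positive and 4 negative. At an unadjusted p under 0.05 there were 2 of the 14, ALDH1L2 and ALDH6A1, beside 2000 of 12839 tested genes. Limma-voom with sample quality weights called 31.1% of all tested genes, counted in both directions. By this test 8 members were higher, 6 of them ALDH genes (ALDH1L2, ALDH2, ALDH3A1, ALDH3B1, ALDH6A1 and ALDH9A1). It called 3 members lower, AKR1C1, AKR1C2 and AKR1C3.

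The retinal dehydrogenases make retinoic acid. ALDH1A1, a marker of stem-like tumour cells in many tissues, was counted at 3068, 3399 and 2597 CPM in sgControl and 2728, 2179 and 3644 CPM in sgRFX6. The extreme values on both sides were knockout libraries, and the log2 fold change was -0.08 with a 95% interval of -0.62 to 0.46. Its relatives were at or near nothing, with 1 to 4 counts per library for ALDH1A2 and 0 or 1 for ALDH1A3, at or under 0.251 CPM throughout. A count of 3, taken here as the floor, corresponds to 0.122 to 0.189 CPM. Hence ALDH1A1 accounted for nearly all counts of this subfamily in both groups.

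ALDH2 and ALDH1B1 oxidise acetaldehyde in mitochondria. ALDH2, the chief enzyme for it, was counted at 323, 450.1 and 319 CPM in sgControl and 559, 451 and 406 CPM in sgRFX6. It was higher in mean in sgRFX6, yet sgControl replicate 2 reached the level of sgRFX6 replicate 2, and the log2 fold change of 0.37 (SE 0.21) did not pass (adjusted p = 0.450, edgeR's quasi-likelihood test). ALDH1B1 was even across libraries, at 105 to 134 CPM (log2 fold change 0.12, 95% interval -0.23 to 0.48).

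The ALDH3 enzymes clear aldehydes of lipid peroxidation and fatty alcohols. ALDH3A1 varied widely among controls, at 1177, 2645 and 1439 CPM, and was at 2197, 2826 and 1737 CPM in sgRFX6. With this spread the log2 fold change of 0.36 had a 95% interval of -0.37 to 1.10. ALDH3B1 showed the same high control replicate, with 119, 218 and 123 CPM in sgControl and 205, 181 and 122 CPM in sgRFX6. ALDH3A2, the fatty aldehyde dehydrogenase, was at 318 to 422 CPM with a log2 fold change of 0.04. ALDH3B2 had 0 to 4 counts per library and was not tested.

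**Figure D5:**
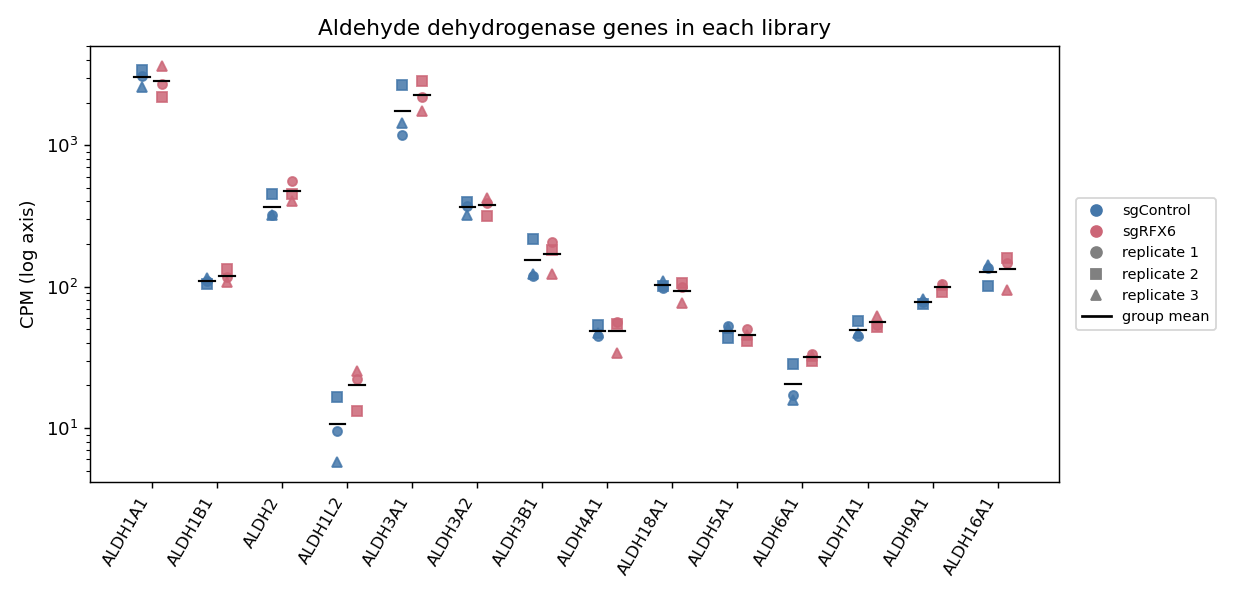
CPM (log axis) of the 14 tested aldehyde dehydrogenase genes in each sgControl (blue) and sgRFX6 (red) library, with symbols for replicates and black bars for group means. The groups stand apart for ALDH6A1 and ALDH9A1 and overlap for the other 12 genes.

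In folate and amino acid metabolism, 2 ALDH genes had groups that did not overlap, ALDH6A1 and ALDH9A1, beside 23.1% of all tested genes. ALDH6A1, which acts on methylmalonate semialdehyde in valine breakdown, was counted at 17.1, 28.2 and 15.8 CPM in sgControl and 33.3, 29.8 and 32.6 CPM in sgRFX6. The gap rested on a small margin over sgControl replicate 2, and the log2 fold change was 0.65 (SE 0.26, adjusted p = 0.265, edgeR's quasi-likelihood test). ALDH9A1, which acts in carnitine synthesis and on the aldehyde of GABA, was at 77.6, 75.1 and 81.6 CPM in sgControl and 104, 91.8 and 102 CPM in sgRFX6. It varied little within groups, and its log2 fold change was 0.34 (SE 0.15, adjusted p = 0.326, edgeR's quasi-likelihood test).

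ALDH1L2, the mitochondrial formyltetrahydrofolate dehydrogenase, had the largest positive log2 fold change of the tested ALDH genes, 0.93 (SE 0.40). Its values were 9.54, 16.6 and 5.74 CPM in sgControl and 22.2, 13.3 and 25.2 CPM in sgRFX6. They overlapped, because sgControl replicate 2 exceeded sgRFX6 replicate 2, and the test gave an adjusted p = 0.312 in edgeR. Of 14 tested genes of folate metabolism 0 were called, with a median log2 fold change of 0.06. MTHFD2, a mitochondrial folate enzyme of proliferating cells named after its values were seen, was at 0.0497 to 0.345 CPM over all libraries and was not tested.

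ALDH4A1, of proline breakdown, and ALDH18A1, which begins proline synthesis from glutamate, had log2 fold changes of -0.02 and -0.13. Their CPM ranged from 34.0 to 56.1 and from 76.0 to 109 over all libraries. ALDH5A1, which ends GABA breakdown, was at 41.4 to 52.6 CPM (log2 fold change -0.10) and ALDH7A1, of lysine breakdown, at 44.6 to 61.7 CPM (0.18). ALDH16A1 was at 95.1 to 160.5 CPM (0.09). None of these 5 had groups that stood apart. ALDH8A1 of the kynurenine pathway had 0 to 4 counts per library, and AKR1D1, the steroid reductase of bile acid synthesis, 0 to 3, so neither was tested.

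The pathways around these enzymes were described from 7 lists of 136 genes, of which 117 were tested, 5 called higher and 4 lower, beside 1.92% and 1.81% of all tested genes. In the retinoic acid list 2 of 15 tested genes were called, with a median log2 fold change of -0.08. DHRS9, a retinol dehydrogenase, rose, with 4.43, 2.84 and 2.85 CPM in sgControl and 9.98 to 12.2 CPM in sgRFX6 (log2 fold change 1.71), a call lost without sgControl replicate 3 (adjusted p = 0.0780, edgeR). STRA6, the receptor that takes up retinol, fell from 34.9, 114 and 34.6 CPM to 13.0, 7.16 and 6.68 CPM (log2 fold change -2.77), a call lost without sgRFX6 replicate 2 or 3 (adjusted p = 0.0712 and 0.0544, edgeR). Both genes had groups far apart, on opposite sides, while ALDH1A1 overlapped.

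Among 21 tested enzymes that reduce or oxidise other carbonyls, AOX1 and XDH were called, with a list median of -0.12. AOX1, an aldehyde oxidase, fell from 8.77, 16.0 and 8.25 CPM to 2.14, 1.82 and 2.13 CPM (log2 fold change -2.43, adjusted p = 0.00592, edgeR). XDH, the xanthine oxidoreductase, had 3, 6 and 2 counts in the sgControl replicates and 83, 30 and 58 in the sgRFX6 replicates (adjusted p = 0.00366, edgeR). These related oxidases thus moved in opposite directions. Of 26 NRF2 target genes, a set that shares regulation with several AKR genes, 1 was called, HMOX1, which degrades haem, at 215, 138 and 182 CPM in sgControl and 455, 438 and 403 CPM in sgRFX6 (log2 fold change 1.28). NQO1 was at 2015, 2571 and 2144 CPM in sgControl and 1931, 1912 and 1653 CPM in sgRFX6 (log2 fold change -0.29, adjusted p = 0.532, edgeR), and the list median was 0.03.

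Next to the AKR1C enzymes in steroid and bile acid metabolism, 0 of 17 tested genes were called, with a median log2 fold change of 0.07. SRD5A1, the steroid reductase whose products AKR1C2 takes up, was at 38.6 to 51.9 CPM over all libraries (log2 fold change -0.09). In the proline list 1 of 7 was called, PYCR1, which completes proline synthesis after ALDH18A1, with 0.0964, 0.486 and 0.475 CPM in sgControl and 5.22, 4.90 and 3.04 CPM in sgRFX6 (log2 fold change 3.59).

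Of 20 tested genes of amino acid and GABA breakdown 3 were called, with a median log2 fold change of 0.01. ABAT, the GABA transaminase that feeds ALDH5A1, fell from 7.57, 10.2 and 7.51 CPM to 1.39, 1.82 and 1.41 CPM (log2 fold change -2.45). TDO2, which opens tryptophan breakdown toward ALDH8A1, fell from 12.5, 19.2 and 9.93 CPM to 1.79, 1.45 and 3.09 CPM (log2 fold change -2.71). ACMSD, which makes the semialdehyde that ALDH8A1 oxidises, was called higher at 0.0405 to 0.241 CPM in sgControl and 0.993 to 1.09 CPM in sgRFX6. That call was kept without sgControl replicate 2 and lost without any other single library (adjusted p = 0.0595 to 0.105, edgeR).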

How the data were processed

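RNA of Hep3B cells was isolated with Trizol and sequenced on an Illumina platform. The authors deposited 1 table of raw counts per gene symbol for 6 libraries, 3 sgControl (columns named cas) and 3 sgRFX6. The labels name the GRCh38 (hg38) build, and the aligner, counter and annotation are not given in the sources used here. A row without a name (at most 9.17e-05% of a library) was left out. GENCODE 29 supplied positions and GC content, and symbols were matched for 15422 rows by name and 260 by another symbol, leaving 1039 unmatched.

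Counts were filtered with filterByExpr (minimum count 10, total 15), scaled by TMM and tested with edgeR 4.0.16 in R 4.3.3 (quasi-likelihood test, no covariates, Benjamini-Hochberg over 12839 genes, threshold 0.05). Depth was 16730386 to 25070793 counts per library and the common biological coefficient of variation 0.269. Intervals are 95% and p-values measure the spread between these libraries, which may be technical, since nothing says that replicates were separate cultures. Scripts were checked on simulated counts. Alternatives were DESeq2 1.42.0, limma 3.58.1 (voom with sample quality weights), RLE or no scaling, robust dispersion, no filter or a mean CPM of at least 1, corrections for GC content or for the 50 nearest genes, a replicate block, each library left out, and related members summed, the last added after seeing the data.

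Replicate numbers did not pair the libraries. The members and all lists were chosen with earlier results of these data known. Named were RFX6, members called or with groups that did not overlap, other members by level or fold change, called genes of the 7 lists (retinoic acid, other carbonyl enzymes, NRF2 targets, bile acid and steroid, proline, amino acid and GABA, folate) and the partner adjoining a called member. Marker lists covered hepatocytes, fibroblasts, leukocytes, endothelial cells and cholangiocytes. Human promoter windows are from RefSeq (GRCh38.p14).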

Additional observations from a re-analysis of the deposited data

How the results depend on the processing

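All 480 calls over the tested genes became 901 with DESeq2, 3998 with limma-voom and 1464 after GC correction, and 212 to 718 when 1 library was left out, with 306, 212, 216 and 303 without sgControl replicates 1 and 3 and sgRFX6 replicates 1 and 2. With a replicate block 648 genes were called, AKR1C2 and AKR1C3 among them, and same-numbered libraries deviated with correlations of -0.41, 0.17 and -0.09, so the numbers did not pair the libraries. Members called higher were 0, and 1 with DESeq2, 8 with limma-voom, 1 after GC correction and 1 after regional correction, with 0 to 0 when 1 library was left out. Members called lower were 2, and 3 with limma-voom. They were 1 after GC correction, after the replicate block with GC correction and after regional correction, with 1 to 2 when 1 library was left out. Genes of the pathway lists called higher were 5, and 26 with limma-voom and 13 after GC correction, with 3 to 8 when 1 library was left out, the lowest without sgControl replicate 3 and the highest without sgRFX6 replicate 3. Those called lower were 4, and 13 with limma-voom and 9 after GC correction. The log2 fold change of RFX6 passed the threshold with limma-voom (-0.96, adjusted p = 0.00274) and after GC correction (-0.84, adjusted p = 0.0448), and its adjusted p ran from 0.00274 to 0.505 over its 18 alternatives. Of 458 values of members under alternatives, 418 kept direction and side of the threshold, 8 lost the call, 12 gained it and 20 changed sign, all 20 of them for genes not called. Sign changes outside the omissions of 1 library were ALDH18A1 0.071 and ALDH3B1 -0.16 after regional correction, and ALDH4A1 0.22 with limma-voom, 0.0050 with a mean CPM of at least 1, 0.0021 after GC correction and 0.18 after regional correction. When 1 library was left out, log2 fold changes crossed 0 for AKR1B1 (-0.57 to 0.0064), AKR7A2 (-0.11 to 0.22), ALDH16A1 (-0.070 to 0.29), ALDH18A1 (-0.23 to 0.0062), ALDH1A1 (-0.30 to 0.068), ALDH3A2 (-0.046 to 0.14), ALDH3B1 (-0.018 to 0.48) and ALDH4A1 (-0.14 to 0.18). The causes of these changes were not tested. The 5 members under the filter had too few counts to be tested.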
